A study of Mus musculus with 6 samples.

Results

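Interleukins and their receptors were followed in colon tumors of genetically engineered mice, through the genes whose symbol begins with Il and a number. Of 83 probe sets of the array that carry such a symbol, 6 belong to Il18, Il1b, Il25, Il33, Il1r2 and Il1rn, which were left out by the definition used here, and 3 are shared with a further gene. The remaining 74 sets measure 70 genes, out of 19938 genes with a probe set of their own, and each gene was read from the set with the highest mean over the 6 arrays. There were 3 tumors of double knockout animals, whose genotype is CDX2P-G19Cre;Apcflox/flox;Tgfbr2flox/flox, and 3 of Apc knockout animals, whose genotype is CDX2P-G19Cre;Apcflox/flox, with 1 array per tumor. The animals were C57BL/6J according to the labels and 3 weeks old. The replicate numbers in the labels do not state that each tumor came from a different mouse. Both groups therefore carry the Cre transgene and the floxed Apc alleles, and differ in the floxed alleles of Tgfbr2, the type II receptor of TGF-β. Cre is driven by a human CDX2 promoter fragment that is active in the colon epithelium, and its activation is stochastic there, so immune and stromal cells are not its target in either group. Tumor tissue was laser-dissected from frozen sections before RNA was extracted. The signals are log2 values that the authors obtained by RMA (a background correction, normalization and summary of the probes of a set), and every difference given here is double knockout minus Apc knockout on that log2 scale.

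Interleukins are short-range protein signals between leukocytes, stroma and epithelium, and each acts through receptor chains that are often shared. The cytokines of the common gamma chain group (IL-2, IL-7, IL-15) keep lymphocytes alive and dividing, and IL-4, IL-9 and IL-21, which use the same chain, are placed here with the responses they are known for. Type 2 cytokines (IL-4, IL-5, IL-9, IL-13) act on goblet cells, mast cells and eosinophils, type 17 cytokines (IL-17, IL-22 and the IL-23 that maintains their producers) drive antimicrobial defense of the gut epithelium, and the IL-1 and IL-6 groups signal through NF-κB and STAT3 in inflammation. Most receptors other than those of IL-1 and IL-17 pass their signal through JAK kinases and STAT factors.

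Tgfbr2 had a signal of 10.98, 10.35 and 10.47 in the double knockout tumors, against 11.35, 11.37 and 11.09 in the Apc knockout tumors, and Apc one of 10.16 to 10.77 and 10.76 to 10.84. Where the probes lie with respect to the floxed exons was not determined, and these values are no check of the genotypes. The epithelial marker Epcam was at 12.33 to 12.67 in all 6 tumors, but other epithelial genes varied more. Cdx2 was at 8.24 in double knockout tumor 2 and at 10.08 to 11.18 elsewhere. Krt20 was at 10.11 to 12.15 and Vil1 at 10.73 to 12.05 over the 6 tumors. Double knockout tumor 2 stood apart from the others: its correlation with them over all probe sets was 0.956 to 0.968, against 0.980 to 0.988 among the other 5. Of 14 colonocyte markers 11 were highest there (28.5% of all probe sets tested), and of 14 Wnt target and crypt stem cell genes 12 were lowest there (28.3%). In double knockout tumor 1, 8 of 12 mast cell, basophil and eosinophil markers and 10 of 17 T and NK cell markers were highest (7.66% of all probe sets tested). With 3 arrays in each group, precision is limited by the number of arrays.

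Of the 70 genes, 54 reached a mean signal of 5.88, which is the 20th percentile over the whole array, and were tested together with all other named probe sets (19506 in all). The other 16, among them Il2, Il3, Il5, Il10, Il20 and Il21, had means of 3.93 to 5.79 and are described by their values. As a rough mark of signal without expression, 1027 olfactory receptor genes, which are not known as colon genes, had a 95th percentile of 6.60, and 44 of the 70 genes had a mean above it. Probe sets differ in how strongly they bind, so signals of different genes are not ranked against each other.

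The promoters shown here belong to some of the genes named in the following results. Il7 and Il23a, which are also named there, have no promoter in the RefSeq set used. Il2ra and Il15ra, which encode the alpha chains of the IL-2 and IL-15 receptors, are neighbors on chromosome 2 with 0 protein-coding genes between them in the RefSeq annotation of GRCm38.p6, and both had higher signals in every double knockout tumor than in any Apc knockout tumor. Il6 and Il11 encode cytokines that signal through the same receptor chain, gp130, and both were highest in Apc knockout tumor 2. The sequences are from RefSeq (GRCm38.p6), run 5′ to 3′ in the direction of the gene from 250 bases upstream to 50 downstream of a listed start, and show in capitals the motifs found in them. They lie at chr2:11642542-11642841 (+ strand) for Il2ra, chr2:11705462-11705761 (+ strand) for Il15ra, chr5:30012864-30013163 (+ strand) for Il6 and chr7:4778092-4778391 (− strand) for Il11.
Il2ra: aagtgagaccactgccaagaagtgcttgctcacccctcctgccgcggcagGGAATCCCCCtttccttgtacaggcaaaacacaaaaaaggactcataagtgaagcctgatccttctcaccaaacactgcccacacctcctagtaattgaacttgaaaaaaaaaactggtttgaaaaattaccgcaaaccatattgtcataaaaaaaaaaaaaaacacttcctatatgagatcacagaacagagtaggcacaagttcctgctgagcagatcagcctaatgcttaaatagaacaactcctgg
Il15ra: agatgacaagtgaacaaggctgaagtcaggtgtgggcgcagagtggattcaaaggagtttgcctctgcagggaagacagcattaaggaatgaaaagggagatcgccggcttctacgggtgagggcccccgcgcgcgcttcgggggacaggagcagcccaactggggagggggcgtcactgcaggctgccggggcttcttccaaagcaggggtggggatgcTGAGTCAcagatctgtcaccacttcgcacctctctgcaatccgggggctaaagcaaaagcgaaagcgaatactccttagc
Il6: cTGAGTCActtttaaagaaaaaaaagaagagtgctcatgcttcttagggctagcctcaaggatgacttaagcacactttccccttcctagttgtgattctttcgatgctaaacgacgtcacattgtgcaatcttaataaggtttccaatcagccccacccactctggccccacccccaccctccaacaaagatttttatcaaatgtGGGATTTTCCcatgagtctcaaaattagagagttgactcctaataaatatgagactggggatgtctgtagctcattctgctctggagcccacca
Il11: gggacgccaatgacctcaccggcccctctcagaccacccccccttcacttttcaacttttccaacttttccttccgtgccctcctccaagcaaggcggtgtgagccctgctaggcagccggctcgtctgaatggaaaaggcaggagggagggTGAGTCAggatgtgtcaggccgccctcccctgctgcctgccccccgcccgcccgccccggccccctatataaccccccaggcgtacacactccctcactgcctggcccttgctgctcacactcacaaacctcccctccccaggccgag
The motifs were searched on both strands, without regard to overlap between motifs. The NF-κB motif, which is GGG, any 3 bases and TTCC, was found in the window of Il2ra on the reverse strand, beginning 200 bases before the start, and in that of Il6, beginning 44 bases before it. TGACTCA, the AP-1 motif, was found on the reverse strand in the windows of Il6, Il15ra and Il11, beginning 249, 30 and 98 bases before the start. Il15ra and Il11 each have 2 listed starts, and the window of the other start held no match in either gene. Of 32851 promoters of 300 bases in the RefSeq table, 5.56% held the NF-κB motif and 5.20% the AP-1 motif. The STAT motif TTCNNNGAA (8.30% of promoters), the TCF/LEF motif CTTTGAT (3.73%), the SMAD motif GTCTAGAC (0.213%) and the TATA box TATAAA (13.6%) were found in none of these windows. A match is a description of the letters, and the data hold no measurement of binding.

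No interleukin or receptor gene passed the test between the genotypes after adjustment over all probe sets. Of the 54 tested, 0 had an adjusted p under 0.05 in limma (0.0% of all probe sets tested) or by the methods' unpaired test, and the smallest adjusted p among them was 0.821 from limma. At an unadjusted limma p under 0.05, 2 genes were higher in double knockout tumors (1.78% of all probe sets tested) and 0 were lower (3.82%), or 5.6% of all in either direction, and the methods' test gave 1 gene. The groups did not overlap, with higher signals in double knockout tumors, for 4 of the 54 genes (5.25% of all probe sets tested), namely Il7, Il2ra, Il15ra and Il9r, and for 0 with lower signals (6.94%), or 12.2% of all in either direction. As shares of the 54 genes, the 2 are 3.7% and the 4 are 7.41%. Both are above the shares of all probe sets in that direction and below those in either direction. With counts this small, no result about the genes is read from them. The difference reached 2-fold in 2 genes (2.17% of all probe sets tested), Il7 upward and Il6 downward. Il6 had a double knockout mean of 5.76, under the signal filter of 5.88, and passed that filter only through its Apc knockout mean of 6.77. The median difference over the 54 genes was 0.05, against 0.01 over all probe sets tested, with 29 above 0 and 25 below. The counts changed when a tumor was left out, and so did those over all 19506 probe sets. Leaving out a tumor can only add to the counts without overlap, whereas those at the unadjusted p went up or down. Leaving out double knockout tumor 3 gave 5 genes higher and 3 lower at that unadjusted p (710 and 1006 of all sets, against 347 and 745 with every tumor), and 11 higher and 6 lower without overlap (2410 and 2699 of all sets, against 1024 and 1354). Leaving out Apc knockout tumor 3 gave 0 and 1 at that p (262 and 481 of all sets), and 10 and 2 without overlap (2372 and 1900). With Apc knockout tumor 1 left out there were 0 and 1 at that p (238 and 439), and 6 and 2 without overlap (1742 and 2251), and with Apc knockout tumor 2 left out 1 and 1 (386 and 852), and 6 and 6 (2013 and 2798). With double knockout tumor 1 left out, 1 and 0 passed that p (244 and 634), and 4 and 3 did not overlap (1942 and 1994). With double knockout tumor 2 left out the counts were 2 and 0 (433 and 680), and 5 and 1 (1851 and 2096).

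**Figure D1:**
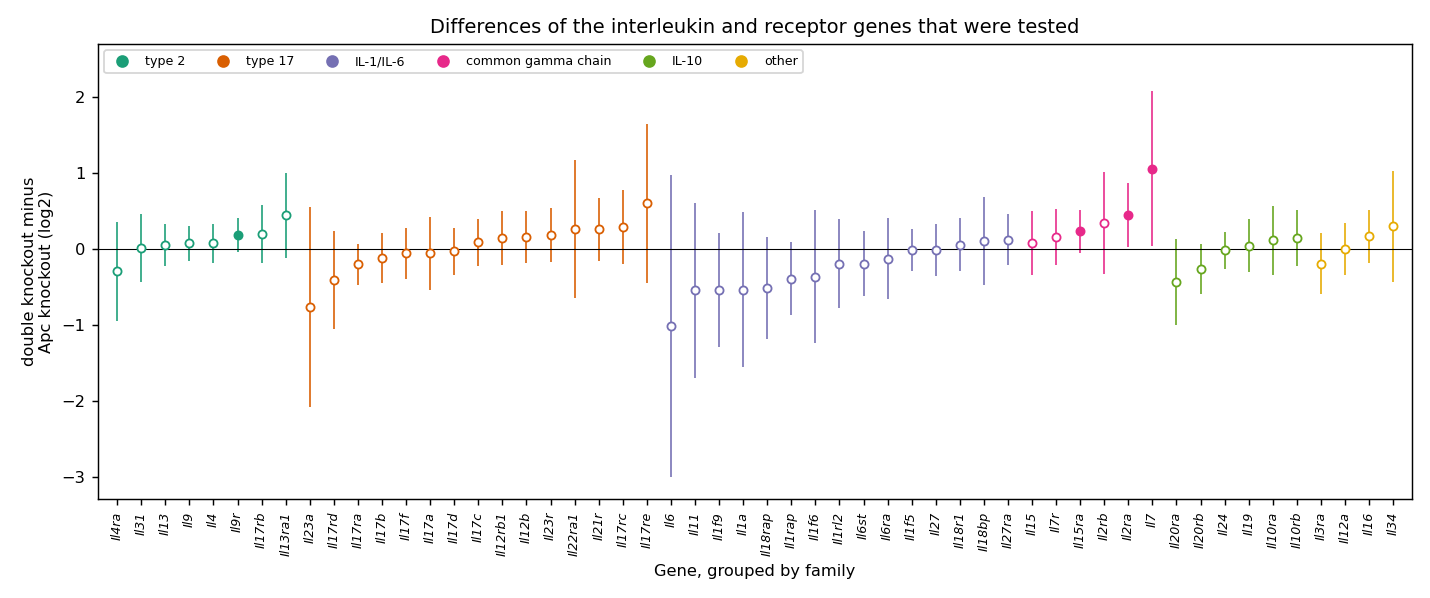
Difference between group means, double knockout minus Apc knockout, in log2 units (vertical axis) for the 54 genes that were tested (horizontal axis), colored by family, with 95% confidence intervals from limma. Filled points mark the 4 genes whose groups did not overlap, 3 of which belong to the common gamma chain family. The intervals of Il7 and Il2ra lie above 0.

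As a family, the genes placed here in the common gamma chain group had higher mean signals in double knockout tumors. All 6 of its tested genes had a difference above 0, with a median of 0.29, and 3 of them did not overlap between the groups, where 5.25% of all probe sets tested did not overlap in that direction. Il7, the cytokine that lymphocytes need for survival and that epithelial and stromal cells make, was at 7.13, 8.62 and 7.28 in double knockout tumors 1 to 3, against 6.40, 6.99 and 6.46 in Apc knockout tumors 1 to 3. Every double knockout tumor was above every Apc knockout tumor, with double knockout tumor 2 far above the rest. The difference was 1.06 (standard error 0.42, adjusted p = 0.821 from limma), or 2.08-fold, and the exact permutation test gave p = 0.1 (two-sided), the smallest that 3 tumors against 3 allow. Without double knockout tumor 2 it was 0.59, and with any other tumor left out it was 0.95 to 1.33. The signal of that tumor stood beside a colonocyte list at 1.81 above its mean in the same tumor (−1.01 to 0.15 in the other 5). The fibroblast and smooth muscle list was at 0.89 there (−0.65 to 0.13 in the other 5), with 11 of 16 genes highest in that tumor (28.5% of all probe sets tested), and the B and plasma cell list at 0.77 (−0.33 to 0.28). The part of these cells in the difference was not tested. In tissue, more cells of a type and more RNA per cell cannot be told apart. Il7r, the receptor chain of IL-7 on lymphocytes, was at 7.59, 7.64 and 7.15 in double knockout tumors, on both sides of the 7.29 to 7.32 of Apc knockout tumors. Il4ra, Il9r and Il21r, whose cytokines also use the common gamma chain, are placed in other families. Their differences were −0.30, 0.18 and 0.26.

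Both alpha chains that give a lymphocyte receptor high affinity for its cytokine had higher mean signals in double knockout tumors, by small steps. Il2ra (CD25, the IL-2 receptor chain of regulatory and activated T cells) was at 8.42, 7.78 and 8.18 in double knockout tumors, against 7.67, 7.67 and 7.73 in Apc knockout tumors. The Apc knockout tumors lay within 0.06 of each other, and the lowest double knockout tumor lay 0.06 above the highest of them. The difference was 0.44 (standard error 0.17, adjusted p = 0.821 from limma, 95% confidence interval 0.02 to 0.86), and 0.29 to 0.61 with 1 tumor left out. Il15ra, which presents IL-15 to neighboring cells, was at 8.42, 8.55 and 8.23 against 8.11, 8.22 and 8.18, so that the groups were 0.01 apart. Its difference was 0.23 (standard error 0.12). Il15 itself was at 8.34 to 8.64 in double knockout and 8.17 to 8.70 in Apc knockout tumors.

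Il2rb, the beta chain that the IL-2 and IL-15 receptors share, was high in double knockout tumor 1 alone, at 8.49, whereas the remaining pair of its group had signals of 7.49 and 7.54, inside the 7.40 to 7.61 of Apc knockout tumors. Its difference of 0.34 became 0.02 without that tumor. Il10ra, the IL-10 receptor chain of leukocytes (8.43, with 7.83 to 8.11 in the other 5 tumors), and Il21r, the IL-21 receptor (7.60, with 6.88 to 7.24), were also highest there, as was Il2ra. The T and NK cell list was at 0.36 above its mean in that tumor and at −0.24 to 0.12 in the other 5, and the mast cell, basophil and eosinophil list at 1.57, against −0.63 to −0.04. In that list the mast cell proteases Mcpt1 and Mcpt2 reached 12.39 and 12.54, with 5.22 to 8.81 in the other tumors. The part of these cells in the receptor signals was not tested. Il2, the T cell growth factor, stayed at 4.83 to 5.23 in all 6 tumors, below the signal filter.

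**Figure D2:**
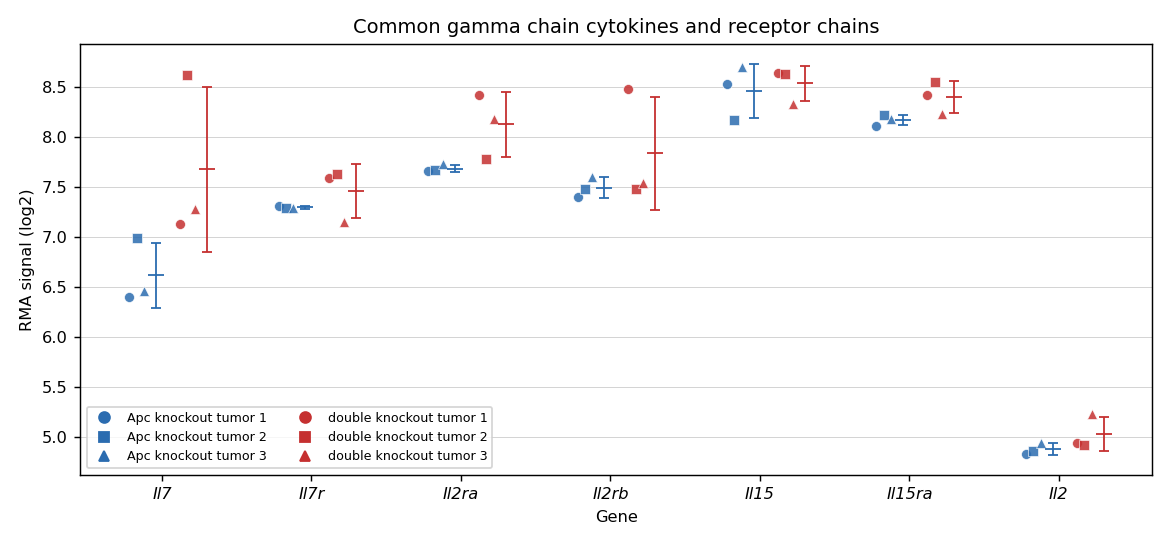
Signal in log2 units after RMA (vertical axis) for the 7 genes of the common gamma chain family (horizontal axis), 1 point per tumor, with bars for the group mean and SD (n = 3). Il7, Il2ra and Il15ra do not overlap between the groups, double knockout tumor 2 (square) is highest for Il7 at 8.62, and double knockout tumor 1 (circle) is highest for Il2rb at 8.49.

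The scores of the type 2 family overlapped between the genotypes. Its per-tumor score, the mean over 12 genes of the signal minus the gene's mean over 6 tumors, was 0.04, 0.06 and −0.03 in double knockout tumors, against −0.02, −0.02 and −0.03 in Apc knockout tumors. The groups overlapped and their means differed by 0.04. Of 8 tested genes, 7 had a difference above 0, with a median of 0.07. Among the receptors, Il13ra1, the chain that binds IL-13 together with IL-4Rα on epithelium, was at 11.15, 11.63 and 10.79 in double knockout tumors, against 10.81, 10.88 and 10.55 in Apc knockout tumors. Its difference was 0.44 (standard error 0.23), and the lowest double knockout tumor was within the range of the Apc knockout tumors. Il4ra, the signaling chain of both the IL-4 and the IL-13 receptor, had a difference of −0.30 (standard error 0.27), at 9.94 to 10.74 against 10.38 to 11.09. Without double knockout tumor 2 the differences were 0.22 for Il13ra1 and −0.079 for Il4ra, and the latter was −0.091 without Apc knockout tumor 2. The groups overlapped for both chains. Il9r, the IL-9 receptor of mast cells and lymphocytes, was at 6.75, 6.87 and 6.78 in double knockout tumors, against 6.59, 6.59 and 6.68 in Apc knockout tumors. These groups did not overlap, with a difference of 0.18 (standard error 0.09) at low signals. Il17rb, the receptor of IL-25, was at 7.23 to 7.52 and 6.92 to 7.38. The cytokines Il4, Il9, Il13 and Il31 ranged over less than 1 log2 unit across the 6 tumors, with Il13 at 7.13 to 7.34 in double knockout and 7.07 to 7.30 in Apc knockout tumors. All values of Il4 (6.06 to 6.30) and Il9 (6.03 to 6.18) lay below the olfactory receptor mark of 6.60. Both are among the 7 genes with a difference above 0. The eosinophil genes Il5 and Il5ra and the decoy receptor Il13ra2 were below the signal filter.

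The scores of the type 17 family overlapped as well, and single members stood apart in double knockout tumor 2, some high and some low. The score over its 17 genes was 0.01, 0.03 and 0.02 in double knockout tumors, against −0.02, −0.06 and 0.03 in Apc knockout tumors, which overlap. Among ligands, Il23a, the p19 subunit of IL-23, was at 8.24, 6.93 and 8.93 in double knockout tumors, against 8.89, 8.22 and 9.29 in Apc knockout tumors. Double knockout tumor 2 was lowest by far, and the difference of −0.77 (standard error 0.54) became −0.21 without it. Il17a and Il17f, the cytokines of Th17 and innate lymphoid cells, were at 6.83 to 7.41 in all tumors, and Il17c, the epithelial IL-17, at 7.40 to 7.77. None of these 3 differed by as much as 0.1 between the groups. Iltifb with Il22, which share both of their probe sets, was at 6.88, 6.29 and 7.18 in double knockout tumors, against 6.31, 6.72 and 6.83 in Apc knockout tumors on the set with the higher mean.

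Among type 17 receptors, Il17re, the epithelial receptor of IL-17C, was at 9.52 in double knockout tumor 2 and at 7.67 to 8.14 in the other 5 tumors. That gene and Il1a and Il1f6 below were singled out after their values were seen. Il17ra, the chain common to the IL-17 receptors, was at 8.88, 8.64 and 8.73 in double knockout tumors, against 8.98, 9.02 and 8.86 in Apc knockout tumors, a difference of −0.20 (standard error 0.11) in which only the top double knockout tumor reached the Apc knockout range. Il17rc, its partner in the IL-17A receptor, differed by 0.29 (standard error 0.20) and Il17rd by −0.41 (standard error 0.27). Both overlapped between the groups, and without double knockout tumor 2 the differences were 0.090 and −0.15. The other probe set of Il17rd gave −0.22, or 0.031 without double knockout tumor 2. Il22ra1, the epithelial chain of the IL-22 receptor, was at 10.28, 11.12 and 10.40 against 10.23, 11.02 and 9.77, so that 1 tumor of each group was high. Its difference was 0.26, and its other probe set gave 0.36. Il22ra2, the soluble inhibitor of IL-22, was below the signal filter, at 6.50 in double knockout tumor 2 and 5.41 to 5.63 elsewhere. Il21r was described above, and Il23r and Il12rb1, the chains of the IL-23 receptor, had differences of 0.19 and 0.14.

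In the IL-1/IL-6 family most genes had lower signals in double knockout tumors, and the lowest and highest scores belonged to 1 tumor of each group. Of 15 tested genes 12 had a difference below 0, with a median of −0.19, against 0.01 over all probe sets tested. The score over 19 genes was −0.09, −0.28 and 0.01 in double knockout tumors, against 0.02, 0.27 and 0.08 in Apc knockout tumors. The lowest Apc knockout score, 0.02, was just above the highest double knockout score, 0.01, and the difference of the means was −0.24, or −0.16 to −0.31 with 1 tumor left out. Apc knockout tumor 2 was highest for 6 of the 19 genes, which is 31.6%, where it was highest for 16.6% of all probe sets tested. Apc knockout tumor 3 was also highest for 6 of them, where it was highest for 24.1% of all, and Apc knockout tumor 1 for 4. Double knockout tumor 2 was lowest for 7 of 19, which is 36.8%, where it was lowest for 28.3% of all. Neutrophil markers differed in the same direction, by −1.01 in their score, with 11 of 12 below 0. Of these markers 4 were lower at an unadjusted limma p under 0.05 (3.82% of all probe sets tested), and their part in the family was not tested.

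Il6 and Il11 were high in a single Apc knockout tumor. Il6, the inducer of acute phase genes, was at 6.09, 8.67 and 5.56 in Apc knockout tumors 1 to 3 and at 6.01, 5.12 and 6.14 in double knockout tumors. Only Apc knockout tumor 2 was outside the range of 5.12 to 6.14, which lies below the olfactory receptor mark of 6.60. The difference was −1.02 (standard error 0.82, adjusted p = 0.832 from limma) with Apc knockout tumor 2 and −0.07 without it. Il11, a stromal cytokine that acts on the gut epithelium through gp130, was at 7.97, 9.48 and 8.01 in Apc knockout tumors and at 8.04, 7.37 and 8.40 in double knockout tumors, again with the same tumor above all others. Its difference of −0.55 (standard error 0.47) became −0.05 without that tumor. The receptor chains varied less: Il6st (gp130) was at 10.64 to 11.08 in double knockout and 10.85 to 11.31 in Apc knockout tumors, and Il6ra at 9.10 to 9.25 and 8.82 to 9.59. Il6ra was lowest in Apc knockout tumor 2, where Il6 was highest.

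In the IL-1 group, Il1rap, the accessory chain of the IL-1, IL-33 and IL-36 receptors, was at 8.32, 8.50 and 8.39 in double knockout tumors, against 9.16, 8.82 and 8.41 in Apc knockout tumors. Its difference was −0.39 (standard error 0.20), or −0.21 without Apc knockout tumor 1, and Apc knockout tumor 3 lay among the double knockout tumors. Il1a, an alarm cytokine of epithelial cells, was at 8.41, 7.28 and 9.02 against 8.76, 8.73 and 8.83, so that the Apc knockout tumors lay together inside the wide range of the double knockout tumors. Il1f9 (IL-36γ), an epithelial member of the IL-1 family, was at 6.17, 6.64 and 7.24 against 7.12, 6.94 and 7.61, a difference of −0.54 (standard error 0.31), or −0.28 without double knockout tumor 1. Il1f6 (IL-36α) was highest in Apc knockout tumor 2, at 7.59, with 6.51 and 6.60 in Apc knockout tumors 1 and 3. Il18rap, a chain of the IL-18 receptor on lymphocytes, was at 8.36 in that tumor and at 6.99 to 7.55 elsewhere, and its difference of −0.51 became −0.22 without it. The T and NK cell list was lowest in the same tumor (−0.24). Il18bp, the soluble inhibitor of IL-18, was at 8.83 to 9.40 and 8.70 to 9.35.

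**Figure D3:**
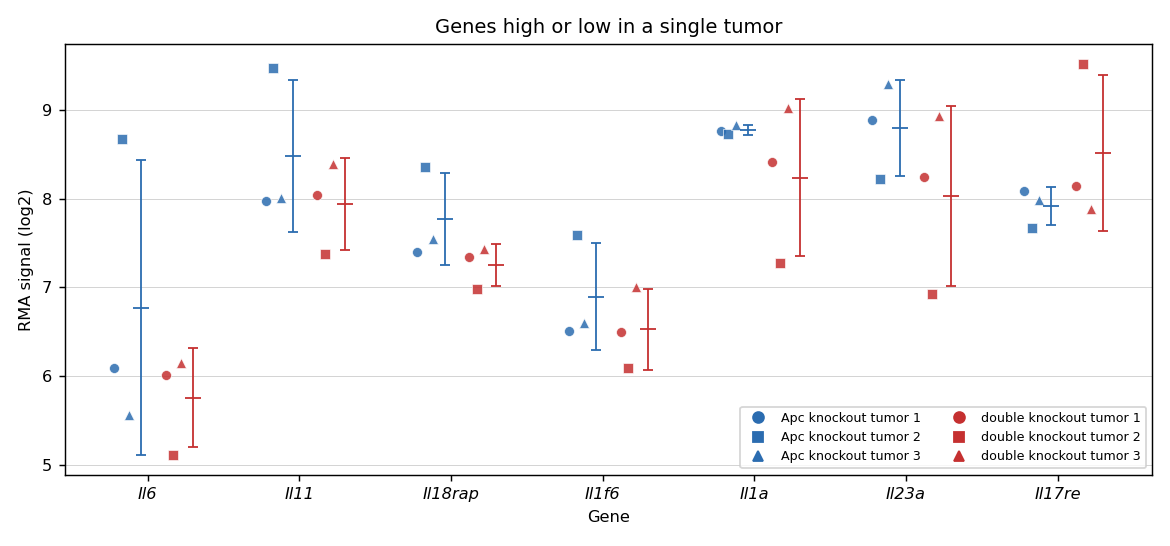
Signal in log2 units after RMA (vertical axis) for 7 genes (horizontal axis), 1 point per tumor, with bars for the group mean and SD (n = 3). Apc knockout tumor 2 (blue square) is highest for Il6, Il11, Il18rap and Il1f6, at 8.67 for Il6 against 5.12 to 6.14 elsewhere, and double knockout tumor 2 (red square) is lowest for Il1a and Il23a and highest for Il17re.

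Of the IL-10 group, Il10 was below the signal filter (4.82 to 5.20), and its widely expressed receptor chain Il10rb was at 10.86 to 11.19 in double knockout and 10.65 to 11.08 in Apc knockout tumors. The 2 chains that form the receptor of IL-20 and IL-24 on epithelium both had lower mean signals in double knockout tumors, with groups that overlapped by 0.08 for Il20rb and 0.12 for Il20ra. Il20rb was at 8.53, 8.26 and 8.42 against 8.46, 8.76 and 8.80, a difference of −0.27 (standard error 0.14), and its other probe sets gave −0.43 and −0.33. Il20ra was at 6.96, 6.42 and 6.76 against 7.04, 6.83 and 7.56, a difference of −0.43 (standard error 0.23), or −0.23 without Apc knockout tumor 3 and −0.29 without double knockout tumor 2. Among the remaining genes, Il34, a ligand of the CSF1 receptor of macrophages, was highest in double knockout tumor 2 (8.84, with 7.65 to 8.10 elsewhere), and Il3ra (difference −0.20), Il16 (0.17) and Il12a (6.11 to 6.49 against 6.20 to 6.44) overlapped between the groups. Of the 16 genes below the filter, Il1bos, an antisense RNA of the Il1b locus, did not overlap, at 5.35 to 5.59 in double knockout and 5.75 to 5.95 in Apc knockout tumors, and neither did Il31ra, at 5.54 to 5.61 and 5.43 to 5.51. Both were named after their values were seen, as was Il22ra2.

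Genes below these receptors were compared through lists of genes known to respond to each group. Over all lists, 0 genes passed the adjusted threshold in limma. Of 18 tested genes that respond to IL-17 or IL-22, 11 had a difference below 0, with a median of −0.23 (−0.41 to −0.15 with 1 tumor left out), and 2 were lower at an unadjusted limma p under 0.05 (3.82% of all probe sets tested): Lcn2, an antimicrobial siderophore binder (difference −1.45), and S100a9, a calprotectin subunit that neutrophils also make (−1.84). Of 19 measured genes of this list 10 were highest in Apc knockout tumor 2 (16.6% of all probe sets tested), among them the neutrophil attractant Cxcl1 (9.79, with 8.31 to 9.06 elsewhere). Of 19 tested genes that respond to IL-6 through STAT3, 11 had a difference below 0, with a median of −0.16, and 3 were lower at the unadjusted threshold: Hp (−2.15) and Saa3 (−1.69), both acute phase genes, and Cebpb, a transcription factor of the acute phase response (8.84 to 8.88 against 9.18 to 9.45, difference −0.45, standard error 0.11). Hp, Saa3 and Lcn2 stand in gene lists that the study drew from the same tumors and are not independent evidence of direction. The 12 neutrophil markers were at 0.81, 0.69 and 0.01 above their mean in Apc knockout tumors and at −1.04, 0.07 and −0.54 in double knockout tumors, and their part in the lists was not tested.

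Of 13 genes that respond to IL-1 through NF-κB, 11 had a difference below 0, with a median of −0.08, and 0 passed the unadjusted threshold. The median was 0.041 without double knockout tumor 2, 0.020 without Apc knockout tumor 3 and −0.25 without Apc knockout tumor 1, so that its direction turned on single tumors. Ptgs2, the inducible prostaglandin synthase, was at 11.61 in Apc knockout tumor 2 and at 9.51 to 9.87 in the other 5 tumors, the same tumor in which Il6 and Il11 were highest. Of 16 tested type 2 response genes 9 had a difference below 0, with a median of −0.06 and 0 past the unadjusted threshold. That median also changed sign with single tumors left out: it was 0.085 without double knockout tumor 2, 0.028 without double knockout tumor 3 and 0.0025 when Apc knockout tumor 1 was left out, but −0.22 without double knockout tumor 1, and −0.21 when Apc knockout tumor 2 was left out. Clca1, a goblet cell product induced by IL-13, was at 11.18, 12.56 and 8.25 in double knockout tumors, against 9.84, 7.65 and 8.04 in Apc knockout tumors, which overlap. Arg1, an IL-4 response gene of macrophages, had a difference of −0.71 (standard error 0.32).

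Partner cytokines and signaling genes gave 3 further genes that were lower at an unadjusted limma p under 0.05. Osm (oncostatin M), a leukocyte cytokine of the IL-6 group, was at 6.87, 7.19 and 7.38 in double knockout tumors, against 8.03, 7.87 and 7.40 in Apc knockout tumors, a difference of −0.62 (standard error 0.21) with groups that were 0.02 apart. Its receptor chain Osmr differed by −0.24 (standard error 0.12). Irak3, an inhibitor of IL-1 receptor signaling, was at 9.19, 8.54 and 8.81 against 9.38, 9.94 and 9.34, a difference of −0.71 (standard error 0.23). Ikbkb, a kinase that activates NF-κB, had a difference of −0.46 (standard error 0.17). Osm was the 1 gene of 16 tested partner cytokines and receptors past that threshold, and Irak3 and Ikbkb were 2 of 18 adaptors and kinases below the IL-1 and IL-17 receptors, where 3.82% of all probe sets tested were lower at that threshold. In the list of 21 JAK, STAT and SOCS genes 0 passed it, 14 had a difference above 0, and the median was 0.07, or −0.015 without Apc knockout tumor 1.

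Set side by side, the type 2 and type 17 families had differences of 0.04 each, the IL-1/IL-6 family one of −0.24 and the common gamma chain family one of 0.35. The SD among tumors of a group was 0.01 to 0.04 for the type 2 and type 17 scores, 0.13 to 0.15 for the IL-1/IL-6 score and 0.05 to 0.14 for the common gamma chain score. The common gamma chain score was 0.26, 0.26 and 0.02 in double knockout tumors, against −0.23, −0.17 and −0.13 in Apc knockout tumors, and these did not overlap. The scores have no test of their own, since the genes were chosen with earlier results of these data known, and the difference between families was not tested. The score of the type 2 response genes ranged from −0.39 to 0.37 over tumors where the type 2 family ranged from −0.03 to 0.06.

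**Figure D4:**
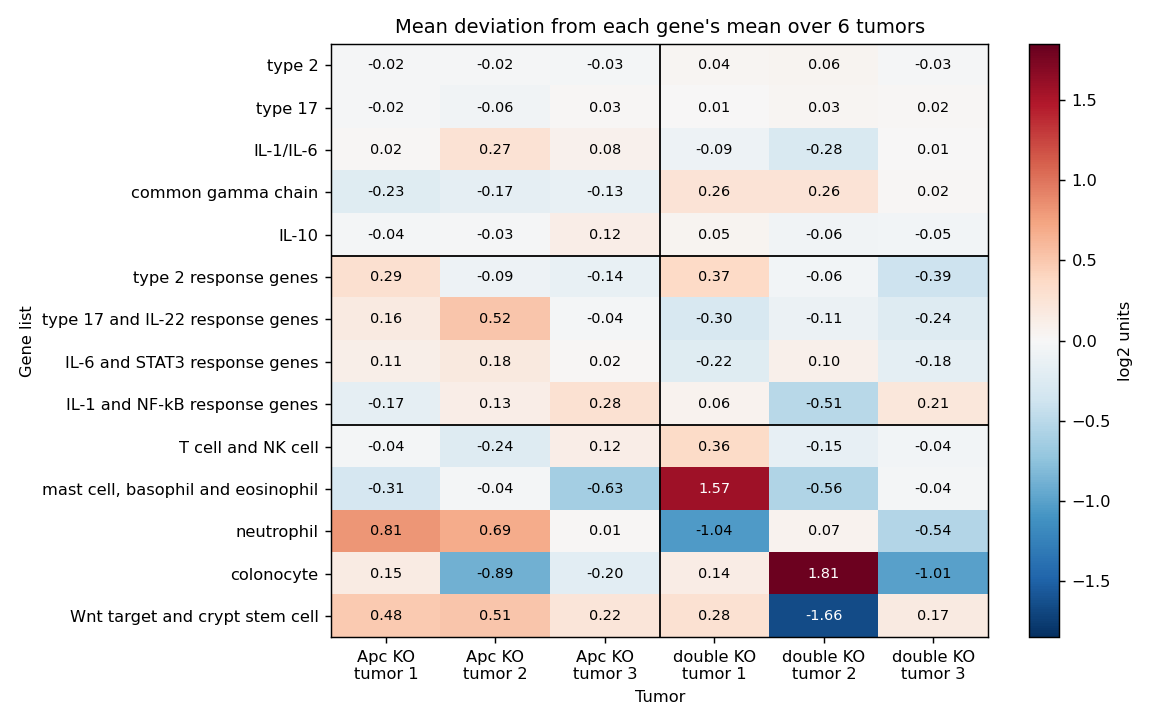
Mean deviation in log2 units (color and printed value) of 5 interleukin families, 4 lists of response genes and 5 lists of cell markers (vertical axis) in each of the 6 tumors (horizontal axis), where 0 is each gene's mean over all tumors. The common gamma chain family is above 0 in the 3 double knockout tumors and below 0 in the 3 Apc knockout tumors, the IL-1/IL-6 family is at 0.27 in Apc knockout tumor 2 and −0.28 in double knockout tumor 2, and the colonocyte list is at 1.81 in double knockout tumor 2.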

How the data were processed

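RNA of 3 double knockout and 3 Apc knockout colon tumors, each laser-dissected, was hybridized by the authors to Affymetrix Mouse Gene 1.0 ST arrays. The deposited values are log2 signals that the authors made with RMA in GeneSpring GX, which corrects background, normalizes quantiles across arrays and summarizes each probe set, and which draws low values together. The annotation build is not given in the sources used here, and no depth applies to arrays. Array medians were 7.68 to 7.80. Replicates are tumors with separate numbers in the labels, which do not state whether each came from a different mouse.

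Of 35556 probe sets, 21789 have 1 symbol in the platform annotation, 1621 several and 12146 none. All 70 genes were found in the RefSeq table by gene identifier, and 54 of them have a promoter there. Sets with several symbols were not assigned to a gene. Il1r1, Il1rl1, Il2rg, Il11ra1 and Il11ra2 were paired with no set and were not analysed here. Named sets whose mean reached the 20th percentile (5.88) were fitted with limma 3.58.1 (lmFit, eBayes) in R 4.3.3, two-sided, without covariates, with Benjamini-Hochberg adjustment over 19506 sets and a threshold of 0.05. The fit was tested on simulated data. Exact permutation tests used the 6 tumors. Scores and motif searches used Python 3.11.15. The genes and lists were chosen with earlier results of these data known.

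Genes named were those tested with an unadjusted p under 0.05 or no overlap, the 4 with the highest mean and the 3 with the smallest p of each family, those ranging over more than 2 log2 units, and the 3 with the smallest p of each response or signaling list. Further members are given by their values to complete a family. Alternatives were the methods' unpaired test with equal variances, other filters (none, the 40th percentile at 7.15, all probe sets), median centring, further quantile normalization, trend with robust eBayes, a replicate block, each tumor left out, and other choices of probe set and family membership. For lists and single genes the mean of all probe sets was added after seeing the data.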

Additional observations from a re-analysis of the deposited data

How the results depend on the processing

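The count of genes with an adjusted p under 0.05 was 0 under every alternative run. At an unadjusted p under 0.05, the methods' test, the 40th percentile filter and quantile normalization each gave 1 gene higher instead of 2, and no filter or all probe sets gave 1 lower instead of 0. The labels do not state whether the replicate numbers pair the tumors. Deviations from the group mean had correlations of −0.20, −0.06 and 0.09 between same-numbered tumors. Differently numbered tumors were not compared, so these values do not decide it. With the number as a block, 2 genes were lower and 2 higher at that p. Without overlap, the 40th percentile filter gave 2 higher instead of 4, and no filter, all probe sets or quantile normalization 1 lower instead of 0. With each tumor left out, the counts ranged from 0 to 5 higher and 0 to 3 lower at that p, and from 4 to 11 and 1 to 6 without overlap, while those over all probe sets ranged from 238 to 710 and 439 to 1006, and from 1742 to 2410 and 1900 to 2798. The type 2 score difference of 0.04 was 0.078 with median centring, 0.099 with the 40th percentile filter and 0.091 over genes that passed the main filter. That of type 17 was 0.072 with median centring, 0.0034 with the 40th percentile filter and −0.0093 as a median over genes, which also gave −0.084 for IL-1/IL-6 and 0.21 for the common gamma chain. The causes were not tested. Of the values of single named genes under an alternative, 13 changed sign and 461 did not. Il12a was 0.033 with median centring and ran from −0.10 to 0.086 with a tumor left out, as did Il10ra from −0.072 to 0.22, Il13 from −0.0059 to 0.11, Il15 from −0.076 to 0.19, Il18bp from −0.10 to 0.29, Il22ra1 from −0.029 to 0.60, Il34 from −0.029 to 0.57 and Il6ra from −0.38 to 0.0085. The medians of the response and signaling lists moved by less than 1 SD between tumors under the alternatives run, but with a tumor left out 3 of them changed sign: type 2 response (−0.22 to 0.085), IL-1 and NF-κB response (−0.25 to 0.041) and JAK, STAT and SOCS genes (−0.015 to 0.097). With the 40th percentile filter the IL-6 and STAT3 median of −0.16 was −0.27.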
